A study of Mus musculus with 6 samples.

Results

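Bone morphogenetic protein (BMP) pathway genes were examined in mouse pancreatic stellate cells (PSCs), the fibroblast precursors of the pancreas, under normoxia and hypoxia. The 9 genes are the ligands Bmp2, Bmp4 and Bmp6, the protease gene Bmp1, the secreted antagonists Grem1 and Nog, and the Id genes Id1, Id2 and Id3. They were chosen by name, each from 1 of the 55426 features of the deposited count table through its Ensembl identifier, and all 9 were among the 16207 genes with enough counts to be tested. Primary PSCs of the C57BL/6 strain were embedded in Matrigel in a transwell insert above organoids of mT3, a line of mouse pancreatic ductal adenocarcinoma (PDAC). Cocultures stood for 48 h at 21% O2 (normoxia, n = 3) or at 1% O2 (hypoxia, n = 3), so every sample was cocultured with tumor organoids. PSCs kept without organoids were not analysed here. The sources do not say whether the replicates of the RNA-seq experiment came from separate PSC lines, and the p-values measure the spread between these samples, which may be technical.

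BMPs are secreted ligands that bind pairs of serine/threonine kinase receptors. The receptors phosphorylate SMAD proteins, which enter the nucleus with Smad4 and switch on target genes. Secreted antagonists such as gremlin and noggin bind the ligands outside the cell and keep them from the receptors. Id genes are among the best known direct targets of BMP signaling and are widely read as its output. Their proteins lack a DNA-binding region and block E proteins by pairing with them. Bmp1 shares the family name only, because it encodes a metalloprotease that trims procollagens and cleaves the antagonist chordin, and it is treated apart from the ligands below.

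Library totals ran from 24749601 to 31925054 counts, at which 3 counts correspond to 0.0943 to 0.122 CPM (counts-per-million, with library sizes scaled by the TMM method). All 9 genes of a list of hypoxia-induced controls, among them Slc2a1, Car9 and Vegfa, were higher at 1% O2, with a median log2 fold change of 2.01. Fibroblast markers summed to between 28462 and 35660.3 CPM in normoxia and between 30496 and 35343 CPM in hypoxia. Most of that sum came from Col1a1, Col1a2 and Col3a1, none of them called, and of the 12 genes 2 were called higher (Pdgfra, 0.82, and Pdpn, 0.99, on the log2 scale) and 2 lower (Lum, -2.17, and Thy1, -1.005). Markers of macrophages were also present, with a sum over 12 genes of 866 to 1511 CPM in normoxia and 454 to 805 CPM in hypoxia. Lyz2 held most of that sum, and 6 of the 12 markers were called lower while none of the other 6 was called. Endothelial markers summed to 16.2 to 22.9 CPM in normoxia and 23.2 to 32.2 CPM in hypoxia, but of 9 tested markers 3 were called higher (Tek, Vwf and Esam) and 2 lower (Kdr and Cldn5), with a median log2 fold change of -0.02. Of 10 epithelial markers 3 were tested, while Epcam and Cdh1, among the untested, had at most 1 count in any sample. Krt19 was called higher in hypoxia (0.715 against 22.1 CPM on average), and Muc1 (log2 fold change 0.58) and Krt7 (-0.23) were not called. Of 8 acinar markers, 4 were at 0 counts in every sample. In bulk RNA, fewer cells of a type and less RNA per cell cannot be told apart.

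In hypoxic PSCs, Bmp2 and the antagonist gene Grem1 were higher, and Bmp4, Nog and Id1 were lower. A gene was called at a linear fold change beyond 1.5 and an adjusted p under 0.05 from edgeR's quasi-likelihood test over all tested genes. By this rule 2 of the 9 genes were called higher, where the share among all tested genes was 18.9%, and 3 were called lower, against 15.3% of all tested genes (34.2% in either direction). Samples of the conditions did not overlap for 7 of the 9 genes, and for 68.9% of all tested genes. The median log2 fold change of all tested genes was -0.004. A ligand and an antagonist were thus called in each direction, and Id2 lay on the other side of 0 from Id1 and Id3. The call of Nog did not hold in some fits with a replicate left out.

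**Figure D1:**
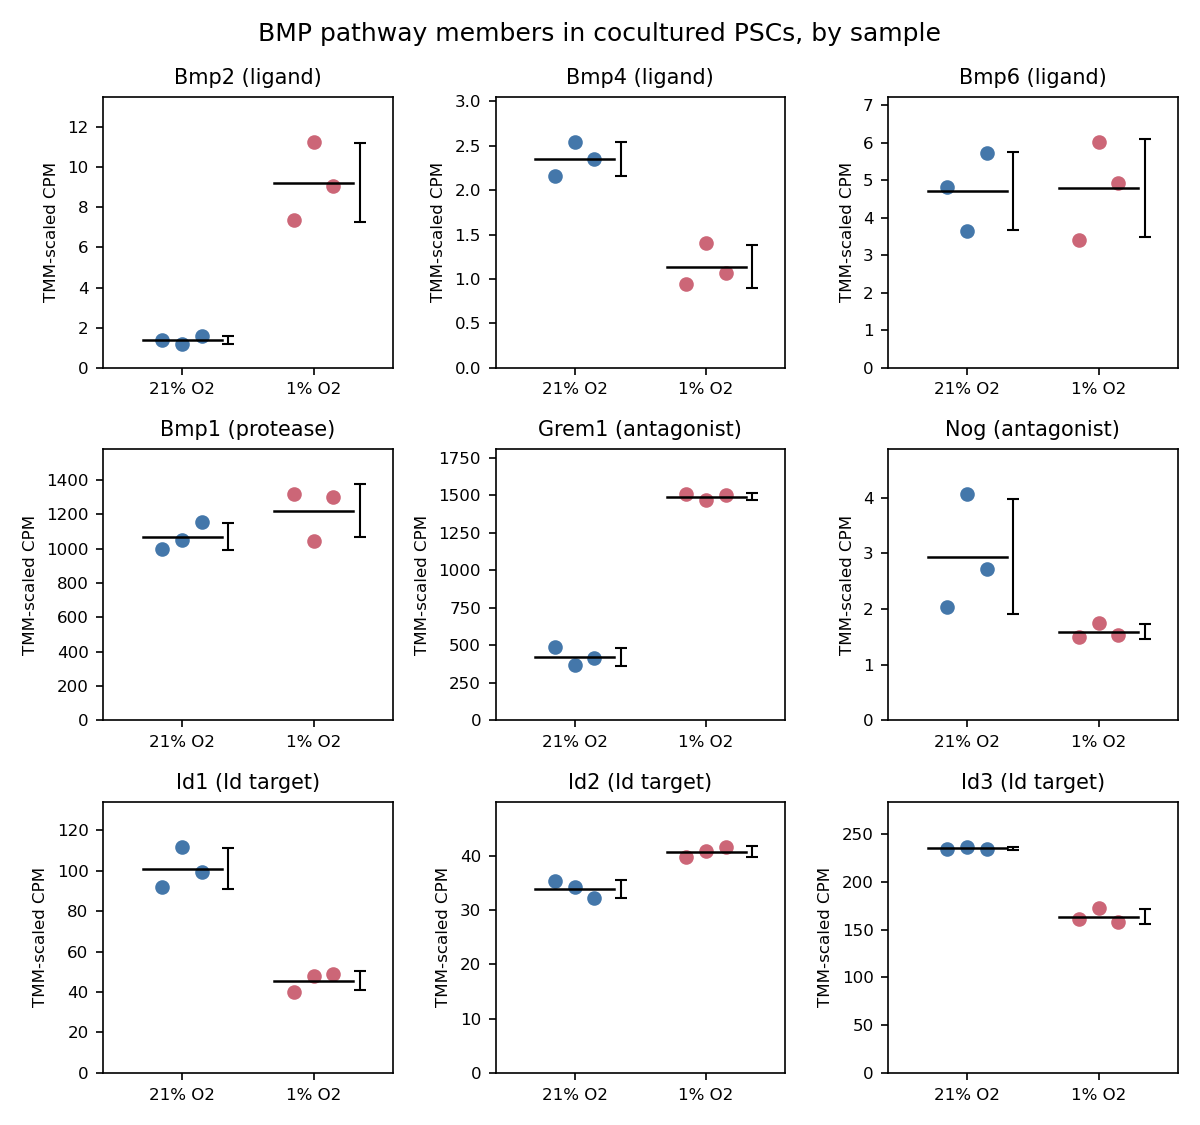
Level of each of the 9 genes in every sample, in TMM-scaled CPM on linear axes that start at 0. Points are samples (blue, 21% O2; red, 1% O2), horizontal lines are means and bars are SD (n = 3 each). The groups are apart for every gene but Bmp6 and Bmp1, and Grem1 sits between 1468 and 1507 CPM in hypoxia.

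Bmp2 had the largest change of the 9 genes. It encodes a ligand with strong bone-forming activity (ENSMUSG00000027358; chromosome 2 of GRCm38, 133552159 to 133562885, plus strand). Its counts were 36, 32 and 39 in the normoxic replicates 1, 2 and 3, and 188, 353 and 288 in the hypoxic replicates. These correspond to 1.39, 1.21 and 1.58 CPM against 7.38, 11.3 and 9.05 CPM. Every hypoxic sample lay above every normoxic sample, and the lowest hypoxic value was several times the highest normoxic one. On the log2 scale this was a difference of 2.73 ± 0.20 (SE), with adjusted p = 4.96e-06 by edgeR, a 6.63-fold increase. With each replicate left out in turn, it ran from 2.56 to 2.86.

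Bmp4, the closest relative of Bmp2 among the 3 ligands, moved the other way (ENSMUSG00000021835; chromosome 14, 46383520 to 46390669, minus strand). It had 56, 67 and 58 counts in normoxia and 24, 44 and 34 in hypoxia. The corresponding levels were 2.16, 2.54 and 2.35 CPM in normoxia, and 0.942, 1.40 and 1.07 CPM in hypoxia. All hypoxic samples were below all normoxic samples. The fitted log2 difference was -1.04 ± 0.22 (SE; edgeR adjusted p = 0.00279), which is 2.05-fold lower at 1% O2. Exons of Bmp4 overlap the antisense gene Gm15217, which had 1 count in a single hypoxic sample and 0 in the others.

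Bmp6, a ligand best known for its part in iron balance, was called in neither direction (ENSMUSG00000039004; chromosome 13, 38345107 to 38500302, plus strand). Its levels were 4.81, 3.64 and 5.72 CPM in normoxia and 3.42, 6.03 and 4.93 CPM in hypoxia, and the groups overlapped fully. The log2 fold change was 0.03, with a 95% interval from -0.49 to 0.55 (adjusted p = 0.916 from edgeR). A 1.5-fold change lies outside this interval on either side. Without normoxic replicate 2 or hypoxic replicate 2 its sign changed (-0.13 and -0.17), and over all left-out replicates the value reached 0.22. Exons of Bmp6 overlap Txndc5 on the opposite strand, a gene with 10075 to 12028 counts per sample. The strand setting of the counting is not given in the sources used here.

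Together the 3 ligand genes made a small pool whose makeup changed. Per exonic length, in reads per kilobase of exon scaled as CPM (RPKM), their sum was 2.58, 2.41 and 2.96 in normoxia and 3.37, 5.34 and 4.29 in hypoxia. Bmp2 held 14.8% ± 0.506 of this sum in normoxia and 60.1% ± 1.28 in hypoxia (SD, n = 3 each). The share of Bmp4 was 39.8% ± 6.26 in normoxia and 11.7% ± 0.673 in hypoxia (SD, n = 3 each). Bmp6 went from 45.4% ± 5.77 to 28.2% ± 1.90 (SD, n = 3 each) although its own level did not pass the test. Of these 3 genes, the one with the lowest level in normoxia thus had the highest level in hypoxia. The more abundant ligand genes Gdf10 and Gdf6, described below, are not part of this sum.

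**Figure D2:**
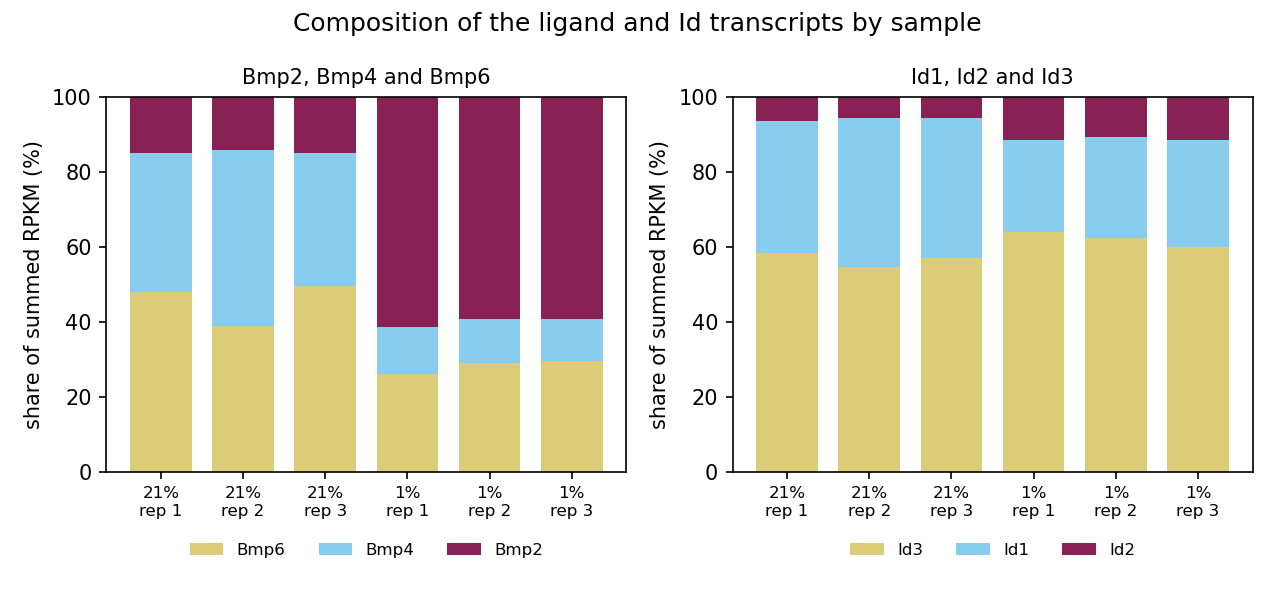
Share of each gene in the summed RPKM of the 3 ligand genes (left) and of the 3 Id genes (right), as stacked bars from 0 to 100% for each sample. Bmp2 takes 14.2 to 15.1% of the ligand sum in the normoxic samples and 59.3 to 61.6% in the hypoxic samples, and Id2 goes from 5.74 to 6.45% up to 10.9 to 11.6% of the Id sum.

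Start regions of the genes were read for short motifs wherever a promoter window was available. RefSeq promoter windows on GRCm38.p6 matched 5 of the 9 genes (Grem1, Bmp4, Bmp6, Id2 and Id3). Bmp1, Bmp2, Nog and Id1 had no window and were not read. The 250 bases before the start are printed for Grem1 and Bmp4, the only ones of the 5 whose windows lie outside the annotated gene body. Capitals mark matches, on either strand, to the core of the hypoxia response element (ACGTG or GCGTG) or to the GC-rich BMP-SMAD element (GGCGCC). Grem1 is at chr2:113758649-113758898 and Bmp4 at chr14:46390670-46390919, both on the minus strand and written 5′ to 3′.
Grem1: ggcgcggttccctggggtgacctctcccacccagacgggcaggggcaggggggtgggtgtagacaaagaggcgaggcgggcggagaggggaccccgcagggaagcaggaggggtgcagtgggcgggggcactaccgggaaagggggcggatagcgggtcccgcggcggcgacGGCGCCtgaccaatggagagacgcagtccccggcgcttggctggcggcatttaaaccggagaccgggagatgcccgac
Bmp4: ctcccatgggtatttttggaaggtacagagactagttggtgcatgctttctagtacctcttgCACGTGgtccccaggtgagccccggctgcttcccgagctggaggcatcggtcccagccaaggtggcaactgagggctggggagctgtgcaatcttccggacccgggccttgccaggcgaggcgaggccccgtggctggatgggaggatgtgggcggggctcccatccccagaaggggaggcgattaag
The Grem1 window held GGCGCC 78 bases before the start and no match to the hypoxia core. The Bmp4 window held the hypoxia core at 188 bases before the start, where the overlapping matches on the 2 strands form a palindrome, and no GGCGCC. Among the windows not printed, that of Bmp6 held 3 matches to the hypoxia core and that of Id3 held 1, while that of Id2 held 1 match to GGCGCC. Of 32851 promoter windows of this length, 38.6% held the hypoxia core and 9.59% held GGCGCC. These matches are descriptions of the letters and say nothing of binding.

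Grem1, which encodes the BMP antagonist gremlin, was the member with the lowest p and the highest level in hypoxia (ENSMUSG00000074934; chromosome 2, 113746164 to 113758646, minus strand). Its counts were 12679, 9724 and 10203 in normoxia and 38382, 45996 and 47737 in hypoxia. In CPM these were 488, 369 and 414 against 1507, 1468 and 1500.3. The hypoxic samples differed by a factor of only 1.03 between highest and lowest, and all lay far above the normoxic ones. By edgeR, hypoxia differed from normoxia by 1.82 ± 0.10 (log2, SE) at adjusted p = 8e-07, a 3.52-fold increase. Across left-out replicates it ran from 1.72 to 1.93.

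Nog encodes noggin, an antagonist that caps BMP ligands, and was expressed at a low level (ENSMUSG00000048616; chromosome 11, 89300638 to 89302332, minus strand). It had 53, 107 and 67 counts in normoxia and 38, 55 and 49 in hypoxia. Its levels were 2.04, 4.06 and 2.72 CPM against 1.49, 1.76 and 1.54 CPM. The groups did not overlap, but normoxic replicate 2 stood well above the other normoxic samples. On the log2 scale this was a difference of -0.88 ± 0.27 (SE), with adjusted p = 0.0171 by edgeR, or 1.84-fold lower. The call did not hold without normoxic replicate 2 (-0.58, adjusted p = 0.0540 from edgeR), without hypoxic replicate 1 (-0.83, adjusted p = 0.0508 from edgeR) or without hypoxic replicate 3 (-0.85, adjusted p = 0.0585 from edgeR).

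The levels of Nog and Bmp4 had the sample order of the summed macrophage markers, a sum held mostly by Lyz2. From lowest to highest, the summed markers were at 454, 553 and 805 CPM in hypoxic replicates 1, 3 and 2, and at 866, 1181 and 1511 CPM in normoxic replicates 1, 3 and 2. Nog and Bmp4 had this same order over all 6 samples. Of the single markers, Lyz2, Tyrobp, Fcgr1 and Fcer1g held it. The groups overlapped for Ptprc, Cd68, Adgre1, Csf1r, Cd14, Itgam, Cd163 and Mrc1, so these did not hold it. This order can be held only by genes whose hypoxic samples all lie below the normoxic ones, and 349 of 5510 such genes (6.33%) held it, or 2.15% of all tested genes. Within a single condition, Id1 and Id3 also followed the order of the marker sum in normoxia, and Bmp2 and Bmp6 did so in hypoxia. Between the highest and lowest normoxic sample the marker sum differed by a factor of 1.74, Nog by 1.99 and Bmp4 by 1.18. Among the hypoxic samples the factors were 1.77, 1.18 and 1.49. Both genes were singled out after their values were seen, and the part of macrophages in their levels was not tested.

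**Figure D3:**
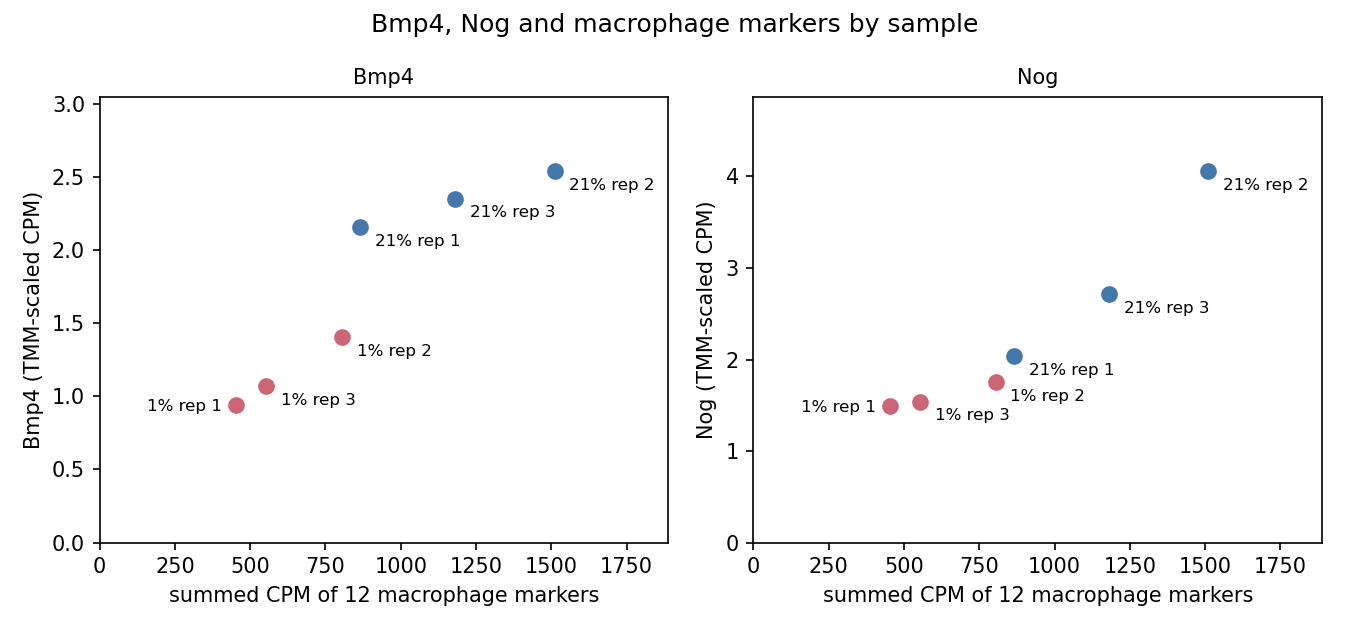
Bmp4 (left) and Nog (right) in TMM-scaled CPM against the summed CPM of 12 macrophage markers, on linear axes, with 1 point per sample (blue, 21% O2; red, 1% O2). The order of the 6 samples is the same on both axes of each panel, from 454 CPM of markers in hypoxic replicate 1 to 1511 CPM in normoxic replicate 2.

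Grem1 made up nearly all of the measured pool of the pair of antagonists. Its share of their summed RPKM was 98.3% ± 0.816 in normoxia and 99.7% ± 0.0267 in hypoxia (SD, n = 3 each). The sum went from 104 ± 13.9 to 361 ± 4.997 RPKM (SD, n = 3 each), while the sum of the 3 ligand genes was 2.65 ± 0.282 and 4.33 ± 0.985 RPKM (SD, n = 3 each). Other genes of both kinds, such as Gdf10, Gdf6, Chrd, Bmper and Nbl1, are outside these sums, and called ones moved in both directions. Nbl1 averaged 373 CPM in normoxia and 378 CPM in hypoxia, where Grem1 averaged 424 and 1492 CPM. Within a sample, the log2 ratio of Grem1 to Bmp4 counts was 7.81, 7.17 and 7.45 in normoxia and 10.61, 10.01 and 10.43 in hypoxia. The difference of 2.88 does not depend on library scaling. In an exact two-sided permutation test over samples it reached p = 0.1, the smallest value that 3 against 3 samples allow (adjusted p = 0.1 over 4 ratios). Against the ligand that rose, the ratio lay the other way. The log2 ratio of Grem1 to Bmp2 counts was 8.44, 8.23 and 8.01 in normoxia and 7.67, 7.02 and 7.37 in hypoxia, a difference of -0.87, with every hypoxic sample below every normoxic one. For Grem1 to Bmp6 the difference was 1.82. These last 2 ratios were added after the data were seen and were not tested.

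Id1 was the only Id member past both limits. It encodes an inhibitor of basic helix-loop-helix factors and is an early target of BMP (ENSMUSG00000042745; chromosome 2, 152736251 to 152737410, plus strand). It had 2391, 2946 and 2443 counts in normoxia and 1022, 1503 and 1555 in hypoxia. The levels were 92.1, 112 and 99.1 CPM, and 40.1, 48.0 and 48.9 CPM in hypoxia. Every hypoxic sample was below the lowest normoxic one. The fitted log2 difference was -1.14 ± 0.09 (SE; edgeR adjusted p = 9.37e-06), which is 2.21-fold lower.

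Id3, the most abundant Id gene here, was lower by less than the fold limit (ENSMUSG00000007872; chromosome 4, 136143497 to 136145755, plus strand). It was at 234, 237 and 234 CPM in normoxia and at 161, 172 and 158 CPM in hypoxia. The samples were close together within each condition and the conditions were clearly apart. By edgeR, hypoxia differed from normoxia by -0.52 ± 0.05 (log2, SE) at adjusted p = 3.66e-05, a 1.44-fold difference.

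Id2 had its hypoxic values above its normoxic values (ENSMUSG00000020644; chromosome 12, 25093799 to 25097140, minus strand). It was at 35.3, 34.2 and 32.1 CPM in normoxia and 39.7, 40.8 and 41.6 CPM in hypoxia. The groups did not overlap, but the difference was small, with a log2 difference of 0.27 ± 0.06 (SE; edgeR adjusted p = 0.00356), or 1.2-fold. Without a fold limit Id2 and Id3 pass as well, which makes 7 of the 9 genes, where 62.7% of all tested genes pass.

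Ratios between the Id genes, which do not depend on library scaling, differed between the conditions. The log2 ratio of Id1 to Id2 was 1.38, 1.71 and 1.62 in normoxia and 0.02, 0.23 and 0.23 in hypoxia, a difference of -1.41. The ratio of Id3 to Id2 differed by -0.79 and that of Id1 to Id3 by -0.62 on the log2 scale. For each ratio all hypoxic samples lay below all normoxic samples, and the exact permutation p was 0.1, the smallest possible, with adjusted p = 0.1. Summed per length, the 3 Id genes were at 232 ± 9.37 RPKM in normoxia and 147 ± 6.73 RPKM in hypoxia (SD, n = 3 each). The share of Id2 in that sum went from 5.99% ± 0.396 to 11.3% ± 0.418 and that of Id1 from 37.4% ± 2.20 to 26.7% ± 2.03 (SD, n = 3 each).

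Bmp1, the procollagen protease, was the most abundant member by counts in normoxia and was called in neither direction (ENSMUSG00000022098; chromosome 14, 70474558 to 70520234, minus strand). It was at 999, 1052 and 1154 CPM in normoxia and 1316, 1042 and 1301 CPM in hypoxia. Hypoxic replicate 2 lay among the normoxic samples, so the groups overlapped. The log2 fold change was 0.19, with a 95% interval from -0.03 to 0.42 (adjusted p = 0.121 from edgeR). A change of 1.5-fold lies outside this interval. Without hypoxic replicate 2 the value was 0.29 (adjusted p = 0.0137 from edgeR), past the p limit but not the fold limit.

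**Figure D4:**
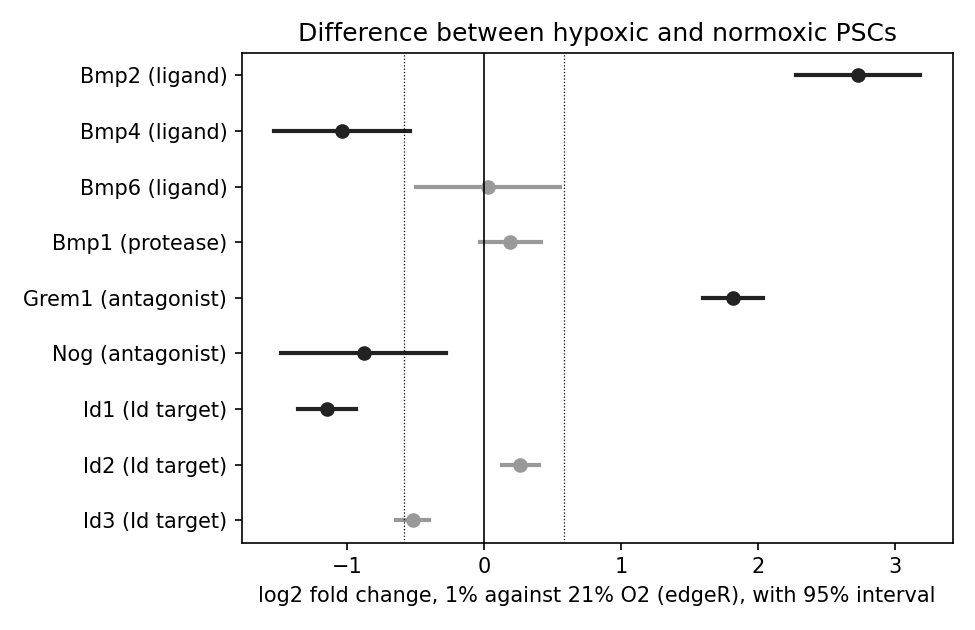
Log2 fold change of each gene at 1% against 21% O2, from edgeR, with its 95% interval. Black marks genes that were called, gray those that were not, and dotted lines mark a 1.5-fold change. Bmp2 and Grem1 lie to the right of the limit at 2.73 and 1.82, Id1, Bmp4 and Nog to the left at -1.14, -1.04 and -0.88.

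Levels of the members spanned a wide range per exonic length. In normoxia the order was Id3 (131 ± 0.839 RPKM), Bmp1 (120.5 ± 8.90), Grem1 (102 ± 14.5), Id1 (87.1 ± 8.63), Id2 (13.9 ± 0.662), Nog (1.73 ± 0.607), Bmp6 (1.21 ± 0.267), Bmp4 (1.05 ± 0.0861) and Bmp2 (0.392 ± 0.0518; SD, n = 3 each). Samples of neighbours in this order overlapped for Bmp1 and Grem1, Grem1 and Id1, Nog and Bmp6, and Bmp6 and Bmp4. In hypoxia Grem1 came first at 359.6 ± 5.08 RPKM, followed by Bmp1 (138 ± 17.4), Id3 (91.3 ± 4.27), Id1 (39.4 ± 4.14) and Id2 (16.7 ± 0.400; SD, n = 3 each). Below them were Bmp2 (2.597 ± 0.548 RPKM), Bmp6 (1.23 ± 0.337), Nog (0.941 ± 0.0826) and Bmp4 (0.506 ± 0.106; SD, n = 3 each). There only Bmp6 and Nog overlapped. Grem1 thus moved from the third level to the first and Bmp2 from the lowest of the 9 to the highest of the 3 ligand members. With the longest transcript as the length, Bmp1 (199 RPKM) and Id3 (184 RPKM) exchanged places in normoxia.

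Genes with a similar course over the 6 samples were sought among 14239 tested genes at a mean of at least 1 CPM. Likeness was the root mean square difference of log2 CPM after centring each gene. Closest to Grem1 were Srgap3 (0.066), Ddah1 (0.070) and Usp53 (0.071), and closest to Bmp4 were Grin1 (0.057), Eef1a2 (0.062) and Plxnc1 (0.065). Closest to Bmp2 were Gm12840 (0.112), Lvrn (0.133) and Tchh (0.151), at a larger distance. For Id1 they were Ddt (0.059), Mpp7 (0.061) and Fdft1 (0.064), and for Nog Cybb (0.088), Ptafr (0.114) and Saa2 (0.116). Closest to Bmp6 were Csf2rb (0.129), Best1 (0.137) and Il11ra2 (0.139), and closest to Bmp1 were Tppp3 (0.037), Zfp458 (0.052) and Caskin2 (0.054). Lipo3 (0.022), Celf1 (0.024) and Ccdc174 (0.024) came closest to Id2, and Scamp2 (0.013), Npc2 (0.015) and Ptgir (0.027) to Id3. Among the members, the shortest distance was between Bmp4 and Id1 (0.134). Genes outside the members were closer, with 9 within 0.1 of Bmp4 and 31 within 0.1 of Id1. Id2 and Id3 had 1303 and 826 genes within 0.1, more than any other member.

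The rest of the pathway was described with 7 lists that hold 68 other genes, of which 48 had enough counts. Of these, 8 were called higher, 8 lower and 32 in neither direction, and their median log2 fold change was -0.03. The called genes were 16 of 48 (33.3%), near the 34.2% of all tested genes, and the counts below stand against 18.9% of all tested genes called higher and 15.3% called lower. Genes given below as not called can still pass the p limit alone. Without a fold limit 14 of the 48 were higher and 19 lower, where 62.7% of all tested genes pass. The 20 genes that could not be tested had at most 21 counts in any sample. They include the ligand genes Bmp3, Bmp5, Bmp7, Bmp8a, Bmp8b, Bmp10 and Bmp15.

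Among 13 other BMP and GDF ligand genes, 3 were tested. Gdf10, a ligand also called BMP3b, was the most abundant of them in normoxia, at 173, 192 and 191 CPM, and fell to 42.2, 42.3 and 40.8 CPM in hypoxia. On the log2 scale this was a difference of -2.15 ± 0.06 (SE), with adjusted p = 3.21e-08 by edgeR. Gdf6 was at 23.2 ± 3.97 and 21.0 ± 5.13 CPM (SD, n = 3 each) and was not called. In CPM, Gdf10 and Gdf6 lay above Bmp2, Bmp4 and Bmp6 in each condition. Gdf5, a joint-forming ligand named here after its values were seen, rose from 4, 9 and 0 counts to 51, 46 and 51.

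Most secreted antagonists and modulators were not called. Of 11 tested genes on a list of 16, 2 were called higher and 2 lower, with a median log2 fold change of 0.02. Chrd, the gene of the BMP antagonist chordin, a substrate of the Bmp1 protease, went from 12.9, 10.9 and 13.2 CPM to 101, 119 and 108 CPM. That is a log2 difference of 3.15 ± 0.09 (SE; edgeR adjusted p = 4.12e-08), larger than that of Grem1. Exons of Chrd overlap Thpo on the opposite strand, and those of Fstl3, Gdf5, Acvrl1 and Rgma, described here or next, also overlap antisense genes. Fstl3, which binds activins more than BMPs, rose from 22.9 ± 2.71 to 108 ± 4.94 CPM (SD, n = 3 each). Bmper, a secreted BMP-binding modulator, fell from 403 ± 23.2 to 138 ± 13.3 CPM (SD, n = 3 each), or by 1.55 on the log2 scale (edgeR adjusted p = 6.36e-07). Chrdl1, named after its values were seen, fell from 14, 27 and 12 counts to 0, 1 and 1. The genes Nbl1, Dand5, Fst, Twsg1, Crim1, Kcp and Vwc2 were not called, and their log2 fold changes lay between -0.47 (Kcp) and 0.52 (Fst).

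**Figure D5:**
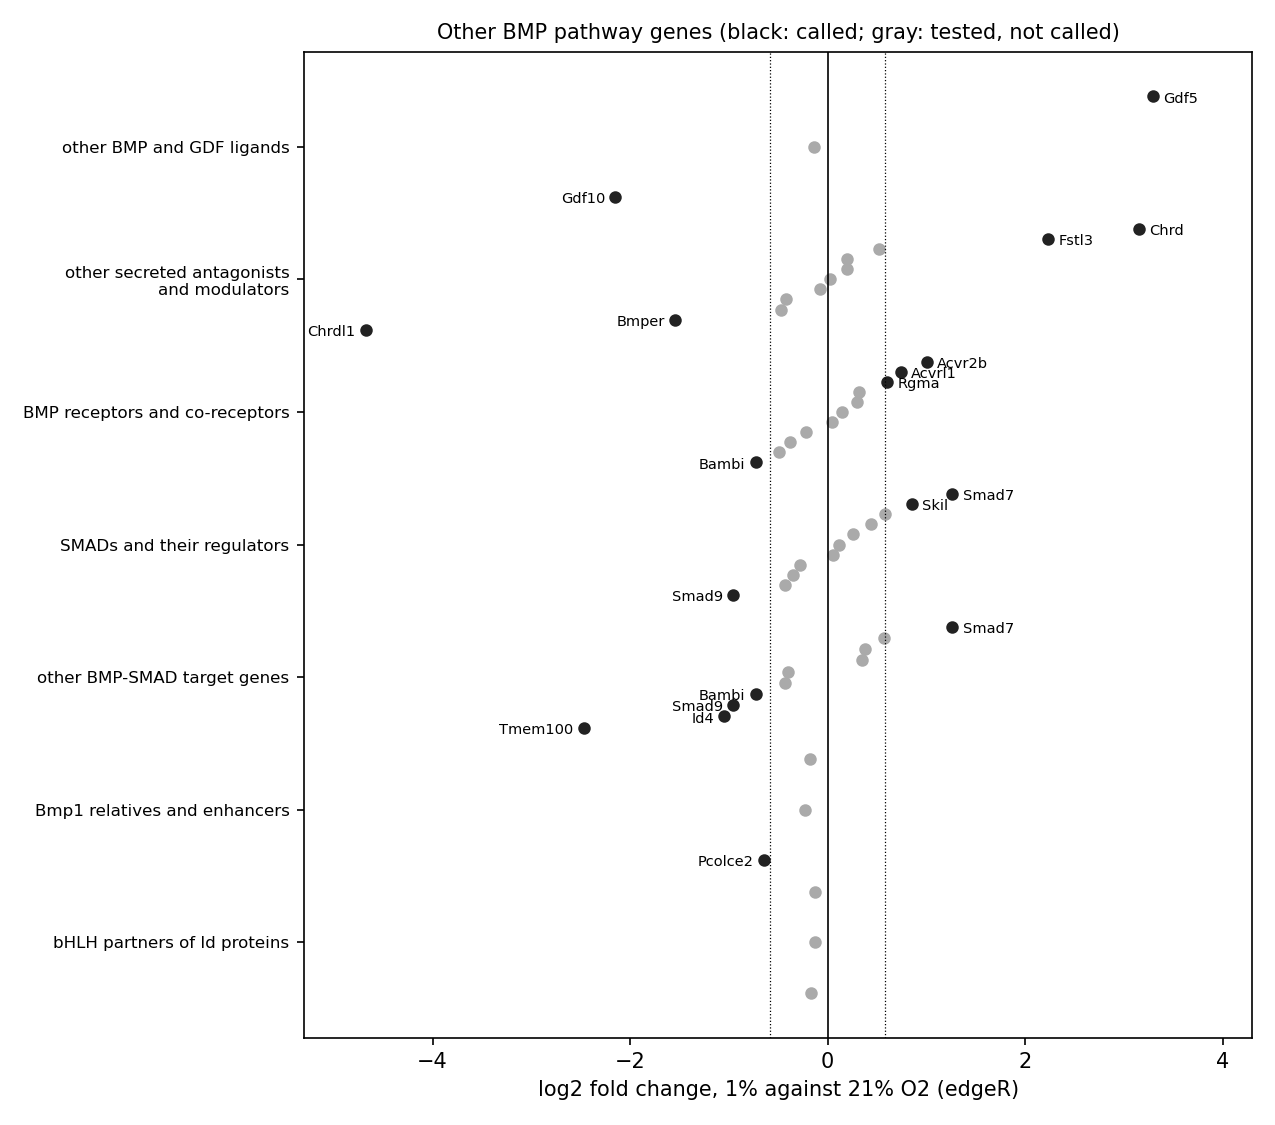
Log2 fold change at 1% against 21% O2 (edgeR) of the tested genes in 7 lists of other BMP pathway genes, with genes on separate heights within a list. Black, named points were called and gray points were not, and dotted lines mark a 1.5-fold change. Chrd at 3.15 and Gdf10 at -2.15 are far out, whereas most receptor and SMAD genes lie between the dotted lines. Smad6, Smad7, Smad9 and Bambi appear in 2 lists.

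Among the receptor genes, most were not called. Of 11 tested genes on the list of 12, 3 were called higher and 1 lower, with a median log2 fold change of 0.15. Acvrl1, the receptor ALK1, rose from 67.6 ± 5.18 to 113 ± 2.82 CPM (SD, n = 3 each; log2 fold change 0.74). Acvr2b, a type II receptor, rose from 1.78 ± 0.142 to 3.56 ± 0.121 CPM and the co-receptor gene Rgma from 38.03 ± 0.108 to 57.7 ± 3.62 CPM (SD, n = 3 each). Bambi, a decoy receptor and itself a target of BMP and TGF-beta, fell from 12.4 ± 1.53 to 7.47 ± 0.415 CPM (SD, n = 3 each). The main BMP receptors were not called, with log2 fold changes of -0.22 for Bmpr1a, 0.29 for Bmpr2 and 0.04 for Acvr1. Bmpr1a and Bmpr2 passed the p limit but not the fold limit (edgeR adjusted p = 0.0119 and 0.0456).

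All 11 SMAD and regulator genes were tested, and 2 were called higher and 1 lower, with a median log2 fold change of 0.12. Smad7, an inhibitory SMAD induced by TGF-beta and by BMP, rose from 39.6, 41.0 and 41.9 CPM to 84.1, 115 and 93.7 CPM (log2 difference 1.26 ± 0.11, SE; edgeR adjusted p = 1.06e-05). Skil, a SMAD corepressor gene, rose with a log2 fold change of 0.85. Smad9, 1 of the 3 SMADs that carry the BMP signal, fell from 6.85 ± 0.682 to 3.53 ± 0.226 CPM (SD, n = 3 each). The other signal carriers were not called, with log2 fold changes of 0.26 for Smad1 and -0.35 for Smad5, and neither was Smad4 at 0.44. Smad1, Smad5 and Smad4 passed the p limit but not the fold limit (edgeR adjusted p = 0.0052, 0.00031 and 0.00025).

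Of 10 tested genes on a list of 13 further BMP-SMAD targets, 4 were called lower and 1 higher, with a median log2 fold change of -0.42. The higher gene was Smad7. Id4, the fourth Id gene, fell from 19.4, 19.1 and 18.1 CPM to 10.1, 8.42 and 8.99 CPM, with a log2 difference of -1.04 ± 0.09 (SE; edgeR adjusted p = 1.35e-05), close to that of Id1. Exons of Id4 overlap antisense genes. Tmem100, a target of ALK1 in endothelium, fell from 3.97, 6.00 and 5.36 CPM to 1.14, 0.893 and 0.754 CPM (log2 fold change -2.47). Endothelial markers were called in both directions, as given above, and their part in Tmem100 and Acvrl1 was not tested. Smad9 and Bambi, given above, were the other lower genes. Smad6, the inhibitory SMAD most tied to BMP, and Atoh8 were not called at -0.43 and -0.40, nor were Runx2 (0.57), Hey1 (0.38) and Msx1 (0.35). Smad6, Atoh8 and Runx2 passed the p limit but not the fold limit (edgeR adjusted p = 0.00073, 0.0011 and 0.0021), and Hey1 and Msx1 passed neither.

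Relatives and partners of single members were also read. Pcolce2, an enhancer of procollagen processing by Bmp1, fell from 11.4 ± 0.448 to 7.32 ± 0.461 CPM (SD, n = 3 each), while the more abundant Pcolce was not called (log2 fold change -0.23). The E protein genes Tcf3, Tcf4 and Tcf12, which encode the partners of Id proteins, were not called, with log2 fold changes of -0.13, -0.17 and -0.13.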

How the data were processed

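Poly(A) libraries were sequenced on a NovaSeq-6000. After adapter trimming, the authors aligned to GRCm38 by STAR (version 2.6.1b), and they deposited the expected counts of RSEM (version 1.3.1), not normalized between samples. All values were whole numbers, so rounding changed nothing. RSEM divides reads shared between genes by an estimate. Counting without molecular identifiers means that limits from counts cover counting error only. Samples were grouped by their labels, and all 6 columns were matched.

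Gene names and coordinates came from GENCODE M21 on GRCm38, and promoter windows from RefSeq on GRCm38.p6. All 9 members were found by symbol. The annotation release used by the authors is not given in the sources used here. edgeR (version 4.0.16, R 4.3.3) was used with filterByExpr, TMM and the quasi-likelihood test, with Benjamini-Hochberg adjustment over 16207 genes. The standard error is the log2 fold change divided by the square root of F, and intervals use the t distribution at 95%. Ratios within a sample had 0.5 added to each count. The tests were tested on simulated data. Totals per sample were 24749601 to 31925054 counts.

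The members and lists were chosen with earlier results of these data known. All 9 members are named, and from each list the 4 called genes with the largest absolute change and a mean of at least 1 CPM, with others marked in the text. Alternatives were a replicate block, other normalizations and filters, DESeq2 (version 1.42.0), limma-voom (limma 3.58.1), other fold limits, offsets for GC content and gene length, and each replicate left out. A further pathway gene was taken out of the lists and their counts and is not reported here.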

Additional observations from a re-analysis of the deposited data

How the results depend on the processing

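Over 19 alternatives each, Bmp2, Bmp4, Grem1 and Id1 kept their direction and their call. Bmp1 kept its direction and was called in none, but passed the p limit alone without hypoxic replicate 2 (0.29, edgeR adjusted p = 0.0137). Bmp6, which was not called in any alternative, changed sign with a GC content offset (-0.0057) and without normoxic or hypoxic replicate 2, with left-out replicates giving values that ran from -0.17 to 0.22. Nog was no longer called with a fold limit of 2 (log2 fold change -0.88, against a limit of 1 by construction) or in 3 of the fits with a replicate left out, which ran from -1.09 to -0.58 with adjusted p from 0.0047 to 0.0585 by edgeR. Without a fold limit Id2 (0.27) and Id3 (-0.52) were called, along with 14 higher and 19 lower of the other pathway genes, and 5150 higher and 5018 lower of all genes (3068 and 2479 with it). With a fold limit of 2, 1929 genes were higher and 1227 lower, and 5 of the other pathway genes were higher and 5 lower. The replicate numbers that the conditions share were also used as a block. Deviations from the group mean correlated at 0.0978, 0.110 and 0.0284 for samples that share a number, and 6 of 6 samples correlated best with their own number, a hint from the data and not from the design. With the replicate block the log2 fold changes were 2.71 for Bmp2, -1.05 for Bmp4, 0.02 for Bmp6, 0.19 for Bmp1, 1.83 for Grem1, -0.85 for Nog, -1.15 for Id1, 0.27 for Id2 and -0.52 for Id3, and it changed no call of a member. With the longest transcript as length, levels in normoxia and hypoxia were 199 and 227 RPKM for Bmp1, 184 and 128 for Id3 and 17.2 and 20.7 for Id2, and 1.14 RPKM for Bmp4 in normoxia. Bmp2, Bmp4, Bmp6 and Nog, with at most 353 counts in any sample, had standard errors of 0.20 to 0.27 on the log2 scale, against 0.05 to 0.10 for the other 5 members. The cause of the other shifts was not tested.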
